A study of Mus musculus with 2 samples.

Results

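Most microRNAs (miRNAs) are cut out of a long transcript by the nuclear enzyme Drosha and then trimmed by Dicer. A few hairpins reach Dicer by another route. The precursors of miR-320 and miR-484 are short transcripts whose 5′ end is the start of transcription and carries a cap, so no Drosha cut is needed, while mirtrons are short introns that splicing releases and that fold into a hairpin, with the splice donor at the 5′ end and the splice acceptor at the 3′ end. Described here are 7 mature miRNAs of this kind, from 6 hairpins: the capped-precursor products mmu-miR-320-3p and mmu-miR-484, and the mirtron products mmu-miR-877-5p, mmu-miR-877-3p, mmu-miR-1224-5p, mmu-miR-1981-5p and mmu-miR-3102-5p. The prefix mmu, for mouse, is left out from here on. They were picked by name for their known biogenesis and not by signal, though earlier results of these data were known by then. All 7 names were among the 1900 miRNA probes of the array, with 1 spot each.

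The samples were B16 cells, a mouse melanoma line, transfected with Fam222B-siRNA or with Control-siRNA by means of a lipid reagent. Both groups grew in DMEM with 5% serum, were preincubated for 24 h before transfection and gave total RNA after a further 48 h. There was a single array for each group (n = 1). Replicate error is therefore unknown throughout, the groups could not be tested against each other, and a difference between the arrays cannot be told apart from a difference between 2 cultures or hybridisations. The Fam222B mRNA is not measured by miRNA probes, so the extent of knockdown was not analysed here. Values are net signals, in intensity units: the spot's median in the Cy5 channel minus the mean of the array's 896 blank spots. A spot counted as detected above the trimmed blank mean plus 2 SD, which was 2.59 net units on the Fam222B-siRNA array and 2.28 on the control-siRNA array. The melanocyte miRNA miR-211-5p gave 326 net units in Fam222B-siRNA cells and 264 in control-siRNA cells, and the other arm of its hairpin, miR-211-3p, gave 70.4 in Fam222B-siRNA cells and 83.3 in control-siRNA cells. The 11 markers of neurons, liver, blood, muscle and epithelium lay between -1.25 and 3.31 net units in Fam222B-siRNA cells and between 0.280 and 5.63 in control-siRNA cells. Of these, 1 passed the detection threshold on the Fam222B-siRNA array, where 50.4% of all probes did. On the control-siRNA array 9 passed, where 64.2% of all probes did, so passing there does not by itself show that a miRNA was present. The fibroblast and smooth muscle markers miR-143-3p and miR-145a-5p were brighter, with miR-143-3p at 112 net units in Fam222B-siRNA cells and 140 in control-siRNA cells and miR-145a-5p at 42.9 in Fam222B-siRNA cells and 54.0 in control-siRNA cells.

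RefSeq (build GRCm38.p6) gave the mature sequence of 6 of the 7 members. They are shown because the mirtron 5p arms carry the first letters of the splice donor. The capitals mark the seed, bases 2 to 8, by which a miRNA pairs with its targets.
miR-484: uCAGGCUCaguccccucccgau
miR-877-5p: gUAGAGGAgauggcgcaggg
miR-877-3p: uGUCCUCUucucccuccuccca
miR-1224-5p: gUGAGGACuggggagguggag
miR-1981-5p: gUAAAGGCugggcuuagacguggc
miR-3102-5p: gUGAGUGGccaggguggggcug

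The 6 seeds all differed. Of the array's other miRNAs with a RefSeq sequence, 1 shared a member's seed: miR-702-5p, itself from a mirtron, has the seed of miR-3102-5p. The 4 mirtron 5p arms each began with gu, the first letters of a splice donor, and were rich in G, with 61.9% G in miR-1224-5p, 59.1% in miR-3102-5p, 55.0% in miR-877-5p and 41.7% in miR-1981-5p. Over the 1614 miRNAs of the array with a RefSeq sequence the median was 26.3%, and 0.743% of these had as much G as miR-1224-5p or more. miR-877-3p and miR-484 were rich in C instead, at 54.5% and 45.5%, against a median of 22.7%.

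The available hairpins of members are shown next with their mature arms in capitals, because the ends of these mirtron hairpins differ from those of Mir484. They lie at chr17:35960730-35960814 on the minus strand within Abcf1 (Mir877), chr16:20604452-20604536 on the plus strand within Vwa5b2 (Mir1224), chr1:184822407-184822488 on the minus strand within Mtarc2 (Mir1981) and chr16:14159626-14159692 on the plus strand (Mir484).
Mir877: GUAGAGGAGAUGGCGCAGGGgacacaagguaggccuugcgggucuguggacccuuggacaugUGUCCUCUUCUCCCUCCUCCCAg
Mir1224: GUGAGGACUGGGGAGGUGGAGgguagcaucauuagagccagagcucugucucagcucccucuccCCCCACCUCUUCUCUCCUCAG
Mir1981: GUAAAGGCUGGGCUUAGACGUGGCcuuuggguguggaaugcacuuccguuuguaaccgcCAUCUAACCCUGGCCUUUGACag
Mir484: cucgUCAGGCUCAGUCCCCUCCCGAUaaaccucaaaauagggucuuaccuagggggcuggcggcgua

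All 3 mirtron hairpins shown begin with GU and end with AG, and in each the 5p arm starts at the first base. The hairpin sequence of miR-3102 was not available. The listed hairpin of miR-702, a mirtron that is not a member, begins with CG and ends with CC. There the 5p arm starts at base 10. The host genes Abcf1, Vwa5b2 and Mtarc2 are annotated on the same strand as their hairpin. Among the 1005 mouse hairpins that RefSeq listed, 30 (2.99%) begin with GU and end with AG. The Mir484 hairpin does neither, its mature miRNA starts at base 5, and no other annotated gene covers it. The miR-3102-5p arm lies at chr7:100882388-100882409 on the minus strand within the Arhgef17 gene.

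The members gave a wide range of signal in B16 cells. On the Fam222B-siRNA array 5 of the 7 were detected, where 50.4% of all miRNA probes were, and on the control-siRNA array all 7 were, where 64.2% of all probes were. The control-siRNA threshold was also passed by 9 of the 11 markers of other cell types. The brightest member, miR-3102-5p, had 141 net units in Fam222B-siRNA cells and 172 in control-siRNA cells, which placed it 77th of 1900 probes on the Fam222B-siRNA array and 71st on the control-siRNA array. It alone made up 56.6% of the members' summed signal on the Fam222B-siRNA array and 57.5% on the control-siRNA array. Together the 7 members held 0.166% of the net signal of all detected miRNAs on the Fam222B-siRNA array and 0.199% on the control-siRNA array. Probe brightness depends on the probe as well as on the miRNA, so the order of members is an order of signals and not of molecules per cell.

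Among the capped-precursor products, miR-484, known for repressing the mitochondrial fission gene Fis1 in mouse heart cells, gave 56.7 net units in Fam222B-siRNA cells and 59.98 in control-siRNA cells. miR-320-3p, the arm of its hairpin that is kept because the cap keeps the other arm out of Argonaute, gave 17.8 net units in Fam222B-siRNA cells and 23.8 in control-siRNA cells. Both stood clear of the detection threshold on both arrays. miR-484 was the brighter of the pair on each.

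Among the mirtron products, miR-1224-5p, from an intron of Vwa5b2, gave 27.2 net units in Fam222B-siRNA cells and 28.2 in control-siRNA cells. miR-1981-5p was close to the detection threshold, at 3.13 net units in Fam222B-siRNA cells and 6.27 in control-siRNA cells. The arms of the Abcf1 intron hairpin were dimmer still. miR-877-5p gave 1.38 net units in Fam222B-siRNA cells and 3.74 in control-siRNA cells, and miR-877-3p gave 1.55 in Fam222B-siRNA cells and 5.05 in control-siRNA cells. Neither miR-877 arm passed the threshold on the Fam222B-siRNA array. On both arrays the miR-877 arms lay within the range of the 11 markers of other cell types, as did miR-1981-5p on the Fam222B-siRNA array.

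Which steps of this order can be read depends on how far spots of the same probe differ within an array. This spot SD combines 2 terms. The first is the pooled coefficient of variation of 5 bright control probes with 8 copies each, 4.78% on the Fam222B-siRNA array and 4.67% on the control-siRNA array, and the second is the SD among blank spots, 1.66 units on the Fam222B-siRNA array and 1.54 on the control-siRNA array. On both arrays miR-3102-5p stood above miR-484, and miR-484 above miR-1224-5p, by more than 7 such spot SD. miR-1224-5p exceeded miR-320-3p by 3.34 spot SD on the Fam222B-siRNA array and by 1.61 on the control-siRNA array, so this pair was separated at 2 spot SD on the Fam222B-siRNA array only. miR-320-3p exceeded miR-1981-5p by 5.87 spot SD on the Fam222B-siRNA array and 7.12 on the control-siRNA array. Among the 3 dim members, the gaps from miR-1981-5p to miR-877-3p and from miR-877-3p to miR-877-5p were under 1 spot SD on both arrays.

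**Figure D1:**
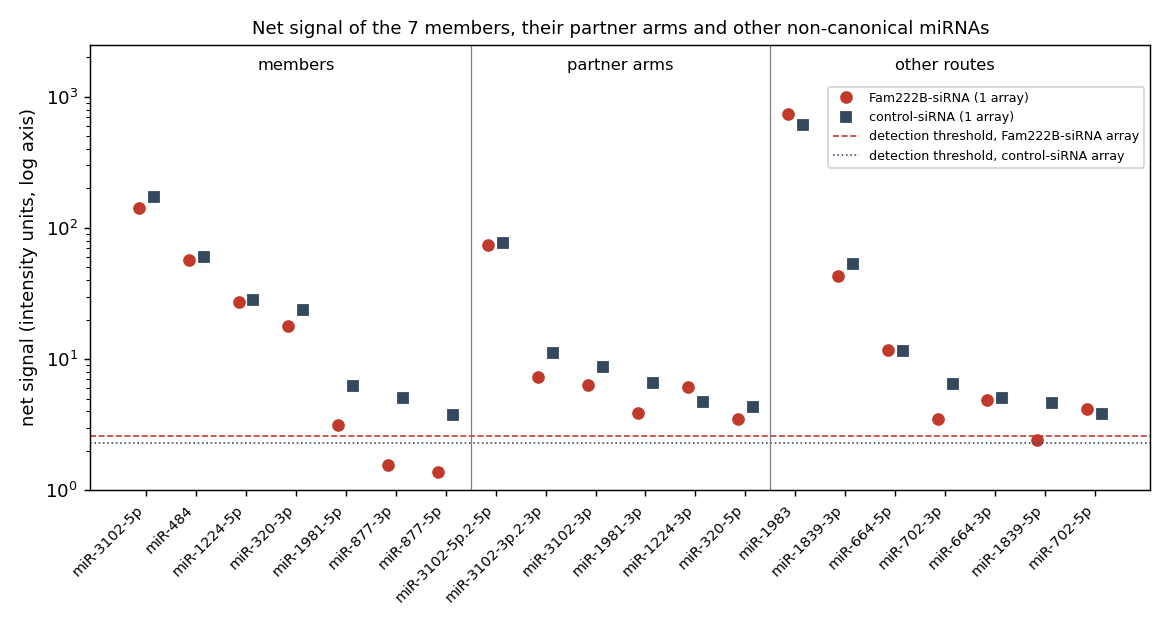
Net signal (intensity units, log axis) of the 7 members, 6 partner arms and 7 miRNAs made by other routes outside Drosha, with 1 point for the Fam222B-siRNA array (circles) and 1 for the control-siRNA array (squares), and each array's detection threshold as a line. miR-3102-5p is the brightest member on both arrays, and both miR-877 arms lie under the threshold of the Fam222B-siRNA array.

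The other arms of these hairpins have probes of their own. Ratios between arms therefore compare signals of different probes, and strand use was not tested. For miR-3102 the 5p arm was 22.1-fold brighter than the 3p arm in Fam222B-siRNA cells and 19.8-fold in control-siRNA cells. The same arm was brighter for miR-1224, by 4.44-fold in Fam222B-siRNA cells and 5.98-fold in control-siRNA cells, with miR-1224-3p at 6.14 net units in Fam222B-siRNA cells and 4.72 in control-siRNA cells. For miR-320 it was the 3p arm that was brighter, by 5.11-fold in Fam222B-siRNA cells and 5.53-fold in control-siRNA cells. miR-320-5p had 3.49 net units in Fam222B-siRNA cells and 4.30 in control-siRNA cells. For miR-1981 the arms were alike in signal: miR-1981-3p had 3.86 net units in Fam222B-siRNA cells and 6.59 in control-siRNA cells, and the gap to miR-1981-5p was under 1 unit on both arrays. Over the 726 hairpins with both arms on the array the 5p arm was the brighter in 56.6% on the Fam222B-siRNA array and in 55.6% on the control-siRNA array.

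The miR-3102 hairpin is annotated with a second, inner pair of arms. The inner 5p arm, miR-3102-5p.2-5p (gGUGGUGCaggcaggagagcc, seed in capitals), had 74.5 net units in Fam222B-siRNA cells and 77.3 in control-siRNA cells and was the brightest of the 6 partner arms. The inner 3p arm, miR-3102-3p.2-3p, had 7.34 net units in Fam222B-siRNA cells and 11.2 in control-siRNA cells. Both 5p arms of this hairpin were thus brighter than both of its 3p arms on each array. They were also G-rich, at 59.1% for the outer and 52.4% for the inner arm, where the inner 3p arm had 9.52% G.

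**Figure D2:**
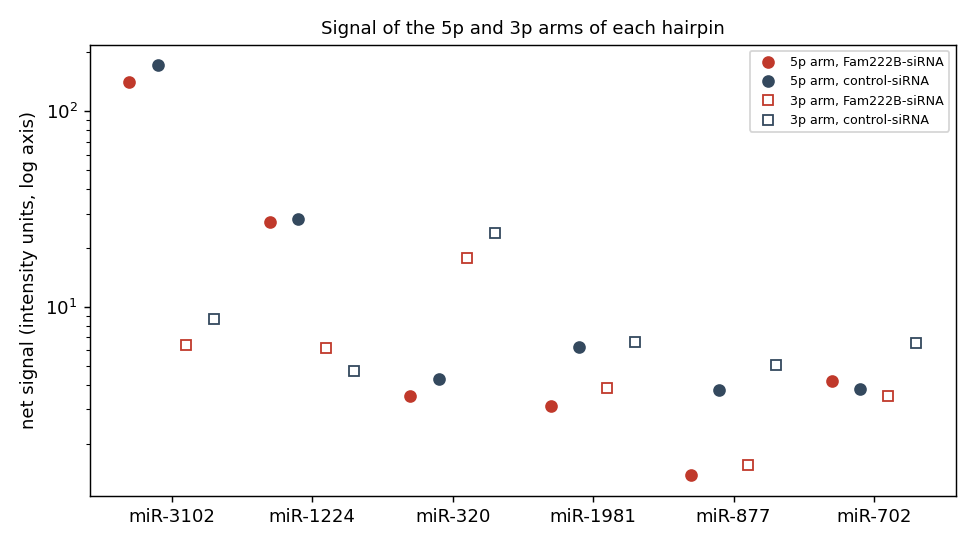
Net signal (intensity units, log axis) of the 5p arm (filled circles) and the 3p arm (open squares) of 6 hairpins, in Fam222B-siRNA cells (red) and control-siRNA cells (dark), with 1 array each. The 5p arm is far above the 3p arm for miR-3102 and miR-1224, the 3p arm is above for miR-320, and the arms of miR-1981, miR-877 and miR-702 lie between 1 and 10 units.

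Comparing the arrays addresses whether miRNA levels differ between Fam222B-siRNA and control-siRNA cells. All 7 members had a lower net signal on the Fam222B-siRNA array than on the control-siRNA array, as 72.6% of all 1900 probes did. Differences are given as log2 ratios, Fam222B-siRNA over control-siRNA, scaled by 1 constant so that the median of the 910 miRNAs detected on both arrays was 0. The constant removed was -0.12 on the log2 scale. Before scaling, the median was 0.018 for miRNAs of at least 100 net units on both arrays. It was -0.10 for those of 10 to 100 units and -0.22 for those under 10 on an array. Scaling by 1 constant leaves this dependence on signal in place and moves bright miRNAs above 0.

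None of the 5 members detected on both arrays differed by 2-fold in either direction, where 2.97% of the 910 miRNAs were higher and 2.42% were lower by that much. At 1.5-fold none was higher, against 7.14% of the 910, and 1 was lower (miR-1981-5p), against 8.57%. Their median difference was -0.17, with 2 members higher and 3 lower, against 0 for all miRNAs by construction. None lay beyond 2 spot SD, where 7.80% of the 910 were higher and 1.76% lower by that measure. This count depended on the scaling: with no scaling miR-320-3p (-2.19 spot SD) and miR-3102-5p (-2.93) were lower by more than 2 spot SD, where 6.26% of the 910 were. miR-484 and miR-1224-5p were nearly equal on the arrays, with differences of 0.038 (spot SD 0.11) and 0.067 (spot SD 0.15), and without scaling, when the median of all miRNAs was -0.12, they were at -0.080 and -0.052. miR-320-3p had a difference of -0.30 (spot SD 0.19). miR-1981-5p had one of -0.88, but with a spot SD of 0.85 at this low signal. The 2 miR-877 arms, detected on the control-siRNA array alone, as 16.3% of all probes were, have no difference on this scale. With the background taken from the No Probe spots, where both were detected on each array, miR-877-3p differed by -1.09 (spot SD 1.18) and miR-877-5p by -0.77 (spot SD 1.33), each within 1 spot SD of 0.

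miR-3102-5p, the member with the firmest signal, had a difference of -0.17 (spot SD 0.099), or -1.73 spot SD. Bright miRNAs as a class lay above 0 on this scale: of the 96 miRNAs that reached 100 net units on each array, 75 were higher and 21 lower, and their median was 0.14. Without scaling, 43 of the 96 were lower and their median was 0.018. Within that class miR-3102-5p had the third lowest difference, after miR-6968-5p and miR-143-3p. Measured from the median of the class it was at -0.31, or -3.11 spot SD, a comparison of these 2 arrays only. That was its furthest from 0 under any setting that gave a value. Relative to the median of its own block it was at -1.27 spot SD. Its inner partner miR-3102-5p.2-5p differed by 0.064 (spot SD 0.11), so the 2 bright arms of this hairpin had differences of opposite sign; without scaling, where the median of all miRNAs was -0.12, they were at -0.29 and -0.054. The outer 3p arm differed by -0.33 and the inner one by -0.49, both within 2 spot SD.

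**Figure D3:**
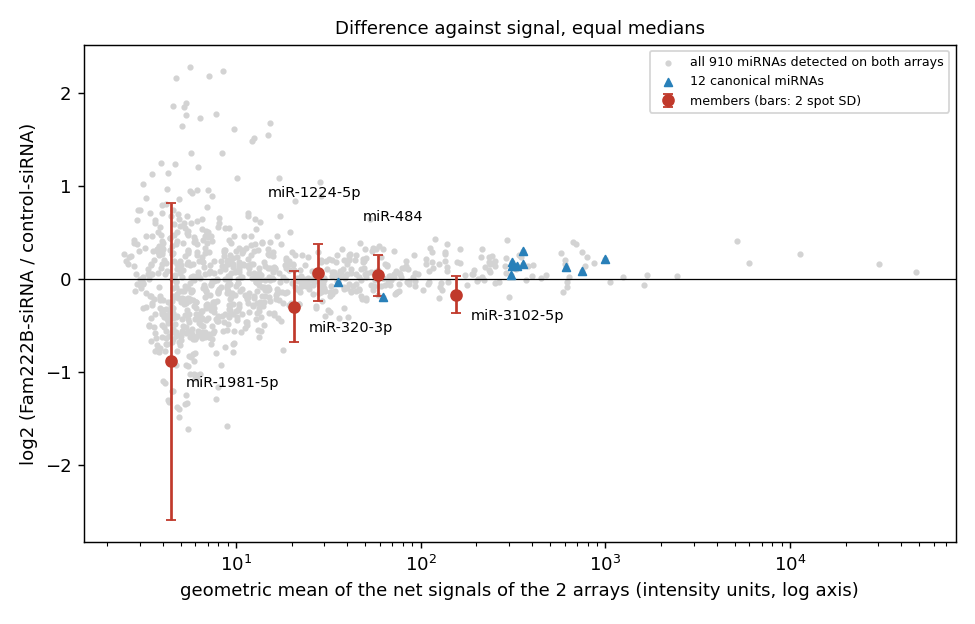
Log2 difference of Fam222B-siRNA over control-siRNA against the geometric mean of the net signals (log axis) for the 910 miRNAs detected on both arrays (grey), with the 5 members detected on both (red, bars of 2 spot SD) and 12 canonical miRNAs (triangles). The bars of all 5 members cross 0, and the bar of miR-1981-5p is the widest at a spot SD of 0.85.

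All 6 partner arms were detected on both arrays, where 47.9% of all 1900 probes were. They had 2 higher and 4 lower values and a median of -0.26, which ranged from miR-1981-3p at -0.65 to miR-1224-3p at 0.50. None was beyond 2 spot SD, where 7.80% of the 910 miRNAs were higher and 1.76% lower. None passed 2-fold, where 2.97% were higher and 2.42% lower. On the miR-1224 hairpin the 3p arm had the higher value in Fam222B-siRNA cells, 6.14 net units against 4.72 in control-siRNA cells, while the bright 5p arm had 27.2 in Fam222B-siRNA cells and 28.2 in control-siRNA cells. The partner arms other than miR-3102-5p.2-5p lay under 12 net units on both arrays. For such dim probes all miRNAs as a class were below 0, since the 484 miRNAs detected on both arrays with under 10 net units on at least 1 of them had a median of -0.11.

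A further 7 miRNAs whose hairpins are made outside Drosha, or come from another class of small RNA, were set beside the members. miR-702 is a mirtron within Plod3, the miR-664 hairpin lies within the small nucleolar RNA gene Snora36b, miR-1839 comes from a box H/ACA RNA, and miR-1983 is cut from a transfer RNA for isoleucine. On the Fam222B-siRNA array 6 of the 7 were detected, against 50.4% of all probes, and on the control-siRNA array all 7, against 64.2%. The 6 detected on both arrays had 4 higher and 2 lower values and a median difference of 0.10. miR-1983 was far the brightest, at 737 net units in Fam222B-siRNA cells and 610 in control-siRNA cells, which ranked 18th of all probes on the Fam222B-siRNA array and 23rd on the control-siRNA array. Its difference of 0.39 (spot SD 0.096) was the only one beyond 2 spot SD among the members, partner arms and other non-canonical miRNAs detected on both arrays. By that measure 7.80% of the 910 miRNAs were higher and 1.76% lower, and of the 96 bright miRNAs 26 were higher and 2 lower. The miR-1983 difference was 0.25 above the median of the bright class. With the files' own background column it was -0.83.

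miR-1839-3p, at 43.0 net units in Fam222B-siRNA cells and 52.9 in control-siRNA cells, differed by -0.18 (spot SD 0.12), a value close to that of miR-3102-5p. Its other arm, miR-1839-5p, was at 2.40 net units in Fam222B-siRNA cells, under the detection threshold, and at 4.61 in control-siRNA cells. miR-664-5p had 11.6 net units in Fam222B-siRNA cells and 11.4 in control-siRNA cells. miR-664-3p had 4.85 in Fam222B-siRNA cells and 5.05 in control-siRNA cells. miR-702-5p, which shares the seed of miR-3102-5p, gave 4.18 net units in Fam222B-siRNA cells and 3.79 in control-siRNA cells. Among miRNAs with a RefSeq sequence these 2 alone had this seed, and the miR-3102-5p probe was far the brighter. Signals of different probes do not give the share of each miRNA. The dim mirtron arm miR-702-3p, at 3.50 net units in Fam222B-siRNA cells and 6.52 in control-siRNA cells, differed by -0.78 with a spot SD of 0.77. miR-451a, which needs Drosha but is cut by Argonaute2 in place of Dicer, was at 12.2 net units in Fam222B-siRNA cells and 13.5 in control-siRNA cells (-0.030).

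As a reference for hairpins that Drosha does cut, 12 canonical miRNAs of wide expression had a median of 327 net units in Fam222B-siRNA cells and 323 in control-siRNA cells, from miR-92a-3p at 33.7 in Fam222B-siRNA cells and 37.3 in control-siRNA cells to let-7a-5p at 1023 in Fam222B-siRNA cells and 954 in control-siRNA cells. The median of the 7 members was 17.8 net units in Fam222B-siRNA cells and 23.8 in control-siRNA cells. The canonical miRNAs had 10 higher and 2 lower differences with a median of 0.14, the same as the bright class of 96. The 5 members detected on both arrays had a median of -0.17. Without scaling, 4 of the 12 canonical miRNAs were lower and their median was 0.020, while all 5 members were lower with a median of -0.29. The lists also differ in signal, and the difference between them was not tested.

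By distance between log2 net signals on the 2 arrays, the miRNA nearest to miR-484 was miR-125b-5p, at 57.5 net units in Fam222B-siRNA cells and 60.5 in control-siRNA cells. miR-3572-5p was nearest to miR-1224-5p, at 27.3 net units in Fam222B-siRNA cells and 28.5 in control-siRNA cells. miR-10a-5p was nearest to miR-320-3p, at 17.8 net units in Fam222B-siRNA cells and 24.4 in control-siRNA cells, and miR-130b-5p to miR-1981-5p, at 3.28 in Fam222B-siRNA cells and 6.75 in control-siRNA cells. For miR-3102-5p the nearest was miR-26b-5p, at 132 net units in Fam222B-siRNA cells and 147 in control-siRNA cells, 0.24 log2 units away, while the other 4 distances were between 0.012 and 0.13. With 2 arrays such likeness means only a similar signal on each.

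The members were printed in 7 different blocks of the array's 32. In these blocks the median difference of the miRNAs detected on both arrays ran from -0.11 to 0.071. Taken relative to the median of its own block, miR-320-3p was at -0.32 and miR-3102-5p at -0.13. Over the 10 alternatives that gave a value, miR-320-3p ranged from -0.43 to -0.094, its highest value coming with the 50-unit offset and quantile normalization, and miR-3102-5p from -0.31 to -0.13. miR-484 was at -0.56 and miR-1224-5p at -0.66 with the files' own background column, and under the other alternatives miR-484 ranged from -0.099 to 0.080 and miR-1224-5p from -0.070 to 0.086.

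**Figure D4:**
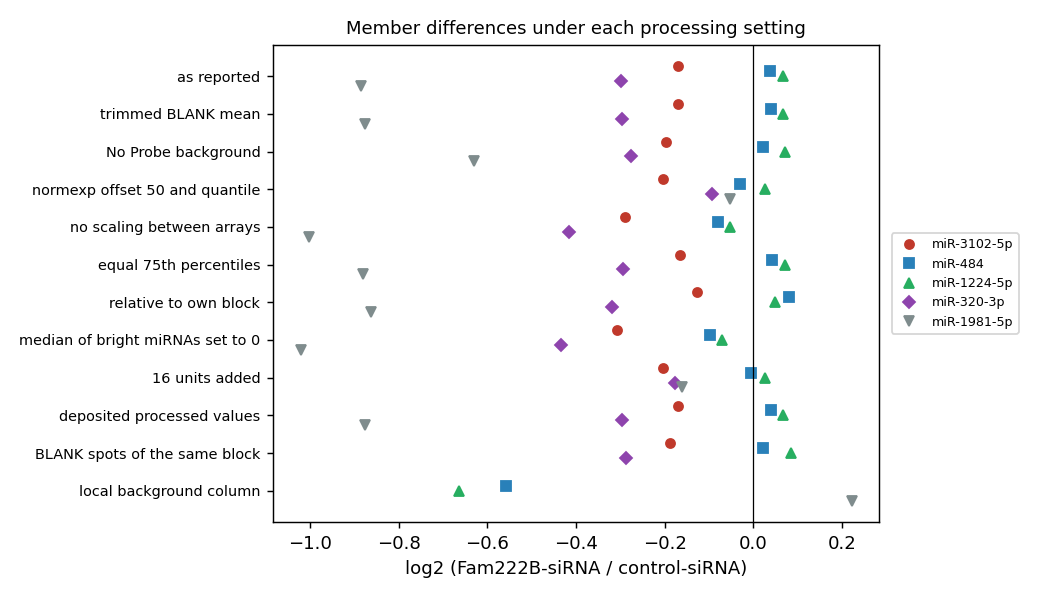
Log2 difference of Fam222B-siRNA over control-siRNA for the 5 members detected on both arrays, as reported (top) and under each of 11 alternative settings. miR-3102-5p and miR-320-3p stay left of 0 wherever they have a value, miR-484 and miR-1224-5p lie on either side of 0, partly because no scaling and the bright median each move every miRNA by 1 constant, and the values of miR-1981-5p run from -1.02 to 0.22.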

How the data were processed

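Total RNA was labelled with Cy5 by a Toray 3D-Gene kit and read on 1-colour arrays, per the labels' protocols. The deposited scanner files hold spot median intensities of the Cy5 channel with no background subtracted, from scans at 3 gains related by least-squares lines, per the file headers. Scanner, software and genome build: not given in the sources used here. The authors' deposited table of processed intensities was a straight line in the spot median on each array, with a background of 69.8 (Fam222B-siRNA) and 70.2 units (control-siRNA) and factors of 3.69 and 3.40, and with medians of 34.6 and 25 over the listed probes. It was used as an alternative.

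Net signal was the spot minus the plain mean of the blank spots. Spots with an NG flag at any gain counted as not detected. Detection used the blank spots after 5% were left out at each end. Differences were scaled to a median of 0 over miRNAs detected on both arrays, since an offset (normexp with 50 units, then quantiles, limma 3.58.1 in R 4.3.3, an alternative) damps dim probes. The spot SD of a log2 difference combines the control-probe variation and the blank SD of both arrays and covers spread within an array only. Groups of a single array allow no test, and precision is limited by their number. The steps were tested on simulated arrays. Planted changes lay in brighter miRNAs only, so signals as dim as those of the miR-877 arms and miR-1981-5p were not covered. The names printed on the array were matched to RefSeq sequences. The text names all members, their partner arms, the other non-canonical miRNAs and miR-451a, the lowest and highest of the 12 canonical miRNAs, and the nearest miRNA of each detected member. Melanocyte and stromal markers are named too, and the 11 markers of other cell types are given as a range. miR-6968-5p is named outside that rule, after its value was seen. The members and lists were chosen with earlier results of these data known.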

Additional observations from a re-analysis of the deposited data

How the results depend on the processing

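No paired analysis was possible because each group had 1 array. The counts of detected members stayed within 4 to 7 on the Fam222B-siRNA array and 5 to 7 on the control-siRNA array over 4 alternatives each: with a threshold of 5 SD, 4 members were left on the Fam222B-siRNA array and 5 on the control-siRNA array, and against the No Probe spots all 7 were detected on both. How many of all probes passed with 5 SD or against the No Probe spots was not counted, so these numbers describe the members alone. No member reached 2-fold higher under any alternative. The share of all miRNAs at 2-fold was not counted under the alternatives either. At 2-fold lower the count was 1 with no scaling and 1 with the median of bright miRNAs set to 0 (miR-1981-5p in both cases), 1 with the No Probe background (miR-877-3p, -1.09, spot SD 1.18), and 1 at a threshold of 1.5-fold. The median difference of the members was -0.56 with the files' own background column, which left 3 members: for miR-320-3p and miR-3102-5p that column exceeded the spot on the Fam222B-siRNA array, at 101 units against a spot of 87.7 and at 225 against 211. Under the other 11 alternatives the median ran from -0.31 to -0.053. With that column the other non-canonical miRNAs had a median of -0.91 and miR-1983 a difference of -0.83, against 0.39 as reported; the cause was not tested. No scaling and bright miRNAs at 0 move all miRNAs alike, to medians of -0.12 and -0.14, and put the other non-canonical miRNAs at -0.018 and -0.036. Counts of members beyond 2 spot SD, 0 as reported, were 2 lower with no scaling and 2 lower with bright miRNAs at 0 (miR-320-3p and miR-3102-5p), 1 lower with 16 units added and 1 lower with normexp and quantiles (miR-3102-5p), and 2 lower with the files' own background column (miR-484 and miR-1224-5p). This count of members was added after seeing the data. Over all miRNAs with a value, 6.26% were lower by that measure with no scaling and 7.36% with bright miRNAs at 0. The share was 3.08% with 16 units added and 3.19% with normexp and quantiles. With the files' own background column, 182 of 725 miRNAs were lower and 109 higher. Values beyond 2 spot SD were thus common under that setting. The spot SD was damped by the offset where there was one. Blank spots of the same block, an alternative chosen after seeing the data, left 4 members with a median of -0.083. Signal over background limits miR-877-5p, miR-877-3p and miR-1981-5p, which lay within 7 units of the blank spots on both arrays.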

Other observations

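A search chosen after the data had been seen took all miRNAs on the array whose RefSeq hairpin begins with GU and ends with AG, which holds 55 probes from 30 hairpins, those of miR-877, miR-1224 and miR-1981 among them. Of the 27 probes for 5p arms, 20 (74.1%) were detected on both arrays. Of the 27 for 3p arms 13 (48.1%) were, while 47.5% of 1559 probes for other hairpins were. The other hairpins were counted with their arms pooled, so arm and hairpin type cannot be told apart here. The 5p arms had a median of 5.92 net units in Fam222B-siRNA cells and 6.27 in control-siRNA cells, and the 3p arms 2.81 in Fam222B-siRNA cells and 3.84 in control-siRNA cells. The 5p arms had a median G content of 50% and the 3p arms of 14.3%. Between the arrays 12 of the 20 detected 5p arms were higher and 8 lower (median 0.072), and 5 of the 13 detected 3p arms were higher and 8 lower (median -0.17). Over the 774 miRNAs with a sequence that were detected on both arrays, G content and net signal had a Spearman's rho of 0.22 on the Fam222B-siRNA array and 0.20 on the control-siRNA array, across miRNAs that share 1 hybridisation on each array.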
